A study of Mus musculus with 8 samples.

Results

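The 10 genes described here are the TGF-beta ligands Tgfb1, Tgfb2 and Tgfb3, the receptors Tgfbr1, Tgfbr2 and Acvrl1, the co-receptors Tgfbr3 and Eng, and the inhibitory Smads Smad6 and Smad7. They were chosen by name, among probe sets that the platform annotation gives exactly 1 gene symbol, and every probe set of each gene was kept. This gave 22 probe sets for 10 of 18193 genes. Gene expression was measured with Affymetrix arrays in whole retinas of mouse pups at postnatal day 8, in 4 Control and 4 Z/Edn2 samples. All pups carried Six3-Cre, a Cre driver of the developing neural retina, which they received from their fathers. The Z/Edn2 pups also carried Z/Edn2, a Cre-dependent transgene for the secreted peptide endothelin 2, and were recognised by LacZ activity in tail clips. Control pups had Six3-Cre alone. The strain was a mix of mainly C57BL/6 and 129, each array held RNA from pooled retinas of 2 to 3 pups, and the labels call the arrays biological replicates.

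TGF-beta ligands are secreted in a latent form and, once released, bind a complex of the type II receptor Tgfbr2 and a type I receptor. The type I receptor Tgfbr1 passes the signal to Smad2 and Smad3, whereas Acvrl1 (also called ALK1), found mainly in endothelium, signals to Smad1, Smad5 and Smad9 and also serves the BMP9 and BMP10 ligands. Smad6 and Smad7 are induced by these signals and block them in turn. Endothelial signalling through Acvrl1 and Eng restrains sprouting of retinal vessels, and microglia depend on TGF-beta for their mature state.

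The deposited values are log2 signals made with RMA, so that a difference of 1 is a doubling, and differences are given as Z/Edn2 minus Control throughout. Levels of different probe sets are not compared as amounts of RNA, since each has its own response. Array medians lay between 6.14 and 6.27. Z/Edn2 3 had the highest median, and in the dimmest 25% of probe sets its median distance from the mean of the other arrays was 0.17, against −0.061 to 0.028 in the other 7. Control 1 and Z/Edn2 1 had the smallest signal difference between the 3′ and 5′ actin control probe sets, 0.65 and 0.56 on the log2 scale, against 1.06 to 1.42 elsewhere. Markers of retinal neurons had median percentiles among all probe sets of 99.5 for photoreceptors, 91.9 for amacrine and horizontal cells, 87.6 for ganglion cells and 71.2 for bipolar cells. Edn2 itself was at 4.04, 4.12, 3.87 and 3.88 in Control and at 4.12, 4.25, 4.28 and 4.00 in Z/Edn2, with a log2 fold change of 0.18 ± 0.0980 (SE; limma adjusted p = 1.00). Since the sources used here do not place the probe set inside or outside the transgene's RNA, it is no check of the genotype.

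None of the TGF-beta ligands, receptors or inhibitory Smads passed the test. In the limma fit over 45037 probe sets, with Benjamini-Hochberg adjustment and a threshold of 0.05, 0 of the 22 member probe sets were called, where 0.0755% of all probe sets were (27 higher and 7 lower). At an unadjusted p under 0.05 the members' count was also 0, against 3.97% of all probe sets, and the smallest unadjusted p was 0.0554. The groups did not overlap in 1 of the 22, a probe set of Tgfb2, against 3.15% of all probe sets. Log2 fold changes ran from −0.27 for Eng to 0.23 for Tgfb1. They were positive in 15 probe sets and negative in 7, with a median of 0.07, beside a median of 0.02 and 57.4% positive over all probe sets.

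**Figure D1:**
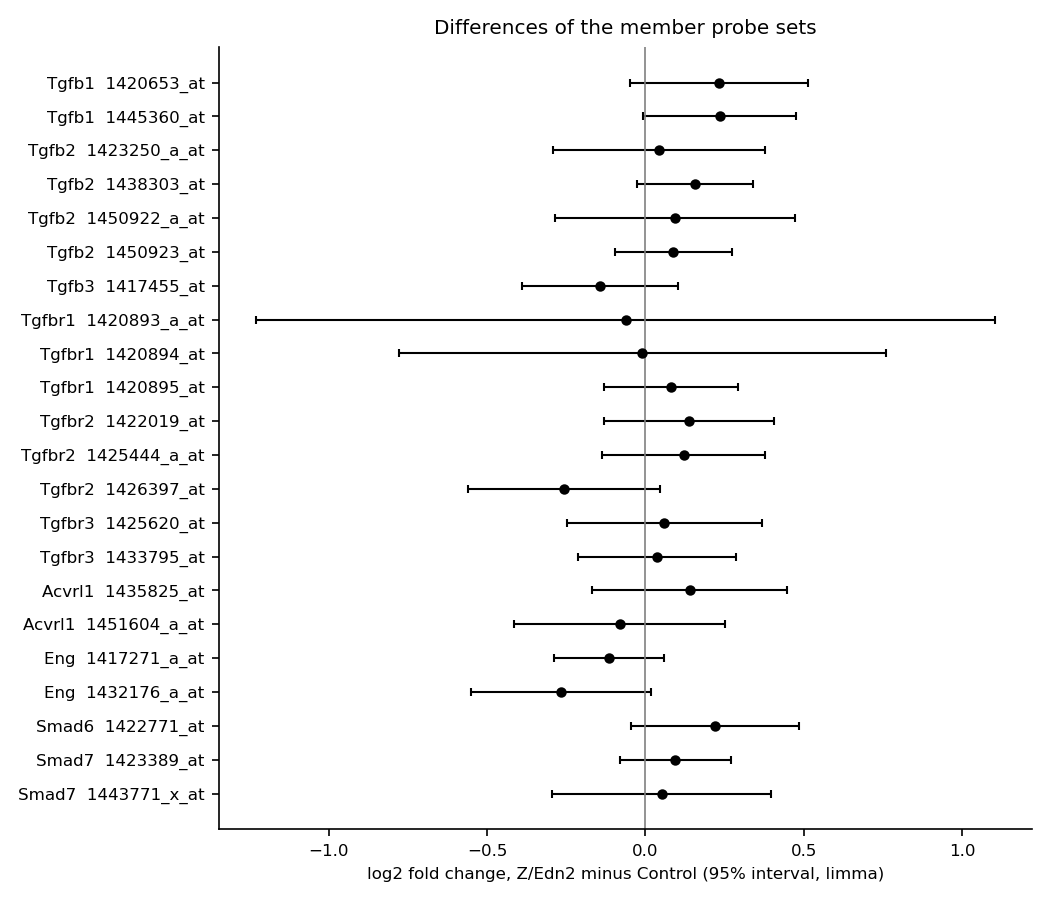
Log2 fold changes (Z/Edn2 minus Control, points) of the 22 member probe sets with their 95% intervals from limma (bars). Every interval includes 0, and the intervals of Tgfbr1 1420893_a_at and 1420894_at are the widest.

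The intervals show which changes of signal these 8 arrays could still hold. The 95% interval of the log2 fold change lay within −1 and 1 in 21 of the 22 probe sets and within −0.5 and 0.5 in 17. Apart from both of the wide Tgfbr1 probe sets, the bounds ran from −0.56 to 0.51. A change of signal beyond 1.47-fold in either direction thus lay outside the interval of each of the other probe sets. Each interval is for a single probe set and is not adjusted for their number. In dim probe sets, such as Tgfbr2 1422019_at (2.54% of probe sets at or below its mean), it need not bound the change in RNA. The members' median standard error was 0.123, beside 0.114 over all probe sets. Samples with the same replicate number deviated from their group means together, and with that number as a block 94 probe sets passed (0.209% of all) in place of 34. Of the members 0 passed with the block (smallest adjusted p = 0.572). The count of members at an unadjusted p under 0.05 became 3, both probe sets of Tgfb1 and 1 of Eng, where 8.08% of all probe sets reached it.

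Among the ligands, Tgfb1, which in nervous tissue is made largely by microglia and vessel cells, had the highest positive log2 fold changes of the members. Its probe set 1420653_at was at 5.06, 4.77, 4.66 and 4.71 in Control 1 to 4 and at 5.24, 4.86, 5.16 and 4.86 in Z/Edn2 1 to 4. The groups overlapped through Control 1, and each Z/Edn2 array was above the Control array of the same number. The log2 fold change was 0.23 ± 0.125 (SE; 95% interval −0.05 to 0.51; limma adjusted p = 1.00). The other probe set, 1445360_at, was at 4.79, 4.70, 4.86 and 4.74 in Control and at 4.90, 5.01, 5.29 and 4.84 in Z/Edn2. Here 3 of the 4 Z/Edn2 arrays were above every Control array, Z/Edn2 3 was the highest, and Z/Edn2 4 lay inside the Control range. This log2 fold change was 0.23 ± 0.107 (SE; limma adjusted p = 1.00, and 0.572 with the block), and 0.14 without Z/Edn2 3. The mean of both probe sets had the same log2 fold change, 0.23 (limma adjusted p = 0.851). Both were dim: only 30.4% and 30.0% of all probe sets had means at or below those of 1420653_at and 1445360_at.

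Markers of microglia, a source of Tgfb1, had more negative than positive differences. Of the 10 marker genes of microglia and macrophages, 0 passed, 3 had positive and 7 negative log2 fold changes, and the median was −0.06. The log2 of their summed signal was 9.98 to 10.3 in Control and 9.81 to 10.2 in Z/Edn2, and Csf1r was the brightest of them. In whole retina, fewer cells of a type and less RNA per cell cannot be told apart, for these genes and for all that follow.

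Tgfb2, which neurons and Mueller glia of the retina are known to make, was measured by 4 probe sets, and all had positive log2 fold changes. Probe set 1438303_at was at 7.55, 7.66, 7.64 and 7.53 in Control and at 7.89, 7.68, 7.72 and 7.70 in Z/Edn2. These groups did not overlap, although the lowest Z/Edn2 array was only just above the highest Control array. Its log2 fold change was 0.16 ± 0.0817 (SE; 95% interval −0.03 to 0.34; limma adjusted p = 1.00), and the authors' deposited table gave an unadjusted p of 0.0360. The other 3 probe sets were brighter and had smaller differences, of 0.04, 0.09 and 0.09, with overlapping groups. In 1450922_a_at the arrays of replicate 1 stood above the rest in both groups, at 9.96 in Control 1 and 10.28 in Z/Edn2 1 against 9.55 to 9.65 elsewhere. Leaving out Z/Edn2 1 turned this probe set's difference to −0.08. Markers of neurons and Mueller glia had mostly negative differences, and 0 passed. All 5 ganglion cell markers were negative (median −0.46), with a summed signal lower in every Z/Edn2 array than in every Control array. Of 6 Mueller glia markers 5 were negative and 1 positive (median −0.18). Medians were −0.08 for photoreceptors and −0.07 for both bipolar cells and amacrine and horizontal cells. The part of these cells in the Tgfb2 values was not tested.

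Tgfb3, the third ligand, had 1 probe set and the only negative difference among the ligands. It was at 7.21, 7.31, 7.15 and 7.14 in Control and at 7.19, 6.76, 7.20 and 7.09 in Z/Edn2. The low value of Z/Edn2 2 set most of the difference of −0.14 ± 0.110 (SE; limma adjusted p = 1.00). Without the pair of replicate 2 the difference was −0.01, but this also leaves out Control 2, the highest Control array.

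The receptor kinases gave no call either, and their probe sets did not share a direction. Tgfbr1, the type I receptor, was measured by 3 probe sets. The brightest, 1420895_at, was at 9.84, 9.73, 9.94 and 9.94 in Control and at 9.92, 9.82, 9.91 and 10.13 in Z/Edn2. Its groups overlapped, and its log2 fold change of 0.08 ± 0.0940 (SE) had an interval of −0.13 to 0.29.

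The other Tgfbr1 probe sets separated arrays by replicate number rather than by genotype. Probe set 1420893_a_at was at 6.32 in Control 1 and 6.72 in Z/Edn2 1, against 4.74 to 4.95 in the other Control arrays and 4.24 to 4.94 in the other Z/Edn2 arrays. Probe set 1420894_at was at 6.71 and 6.96 in the arrays of replicate 1 and at 5.26 to 6.10 in the remaining arrays. In the first of these the lower array of replicate 1 was 1.37 above the highest of the other arrays, and in the second 0.62. A gap over 1 was seen in 139 of all probe sets (0.309%). These are the same arrays that had the small actin difference between the 3′ and 5′ ends, at 0.65 and 0.56, and the part of RNA quality in the Tgfbr1 values was not tested. The log2 fold changes were −0.06 ± 0.520 and −0.01 ± 0.343 (SE), with standard errors of 0.167 and 0.168 once the replicate number was a block. Without both arrays of replicate 1 the differences were −0.22 and −0.09 (limma adjusted p = 0.914 and 0.964).

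**Figure D2:**
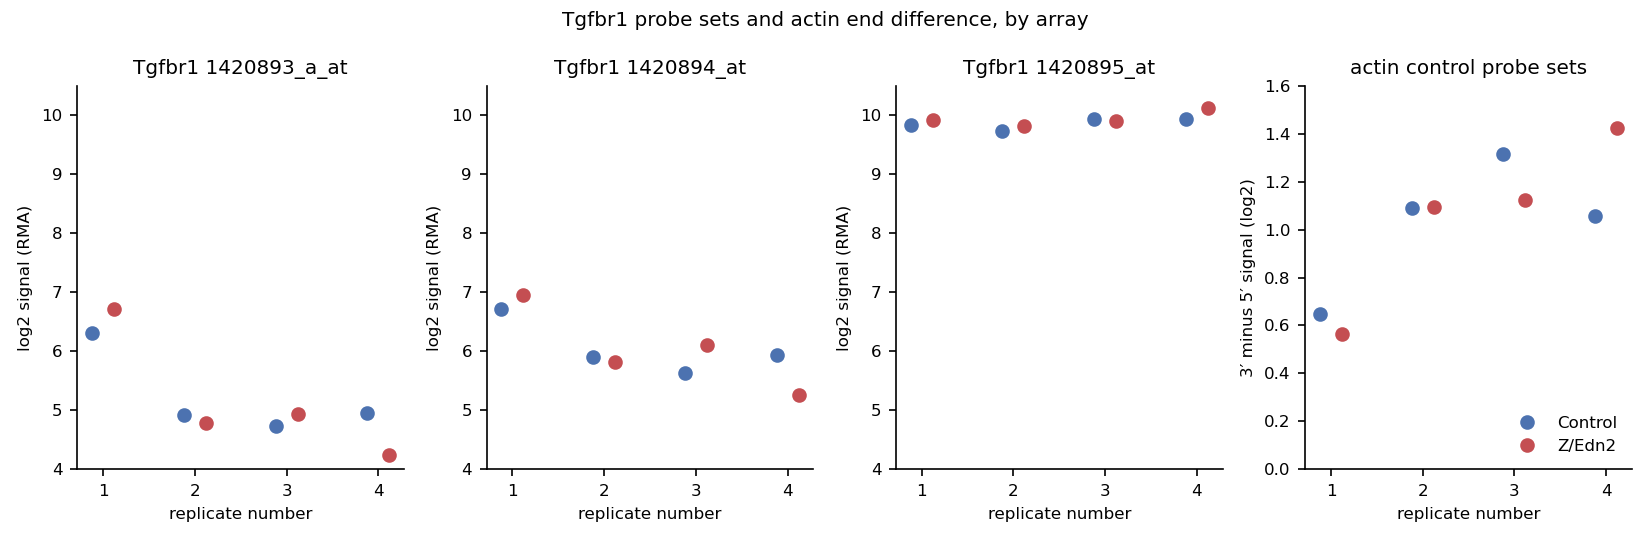
Log2 signal of the 3 Tgfbr1 probe sets and the log2 difference between the 3′ and 5′ actin control probe sets, by replicate number (blue Control, red Z/Edn2; 1 point per array). The arrays of replicate 1 are high in 1420893_a_at and 1420894_at, not in 1420895_at, and lowest in the actin difference.

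Tgfbr2, the type II receptor that binds the ligand first, had probe sets of opposite sign. The brightest, 1426397_at, was at 7.01, 7.41, 7.26 and 7.16 in Control and at 6.85, 6.74, 7.30 and 6.93 in Z/Edn2. Of the Z/Edn2 arrays 3 were below every Control array, and Z/Edn2 3 was near the top of the Control range. The log2 fold change was −0.26 ± 0.135 (SE; 95% interval −0.56 to 0.05; limma adjusted p = 1.00), and without Z/Edn2 3 it was −0.37 (limma adjusted p = 1.00). The probe sets 1425444_a_at and 1422019_at had log2 fold changes of 0.12 and 0.14, and only 2.54% of probe sets had a mean at or below that of 1422019_at. In both of them Z/Edn2 3 was the highest array, at 5.23 and 3.20, and without it the differences were 0.04 and 0.03. The mean of the 3 probe sets had a log2 fold change of 0.00083.

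Acvrl1, the endothelial type I receptor, was dim in this whole-retina RNA, and its probe sets also differed in sign. Probe set 1435825_at was at 4.89, 4.64, 4.74 and 5.08 in Control and at 5.11, 4.72, 5.23 and 4.85 in Z/Edn2. Probe set 1451604_a_at was at 4.44, 4.36, 4.04 and 4.29 in Control and at 4.29, 3.78, 4.42 and 4.31 in Z/Edn2. The groups overlapped in both, with log2 fold changes of 0.14 ± 0.138 and −0.08 ± 0.149 (SE). The first was 0.06 without Z/Edn2 3, and the second turned to 0.06 without Z/Edn2 2, so that the signs differed only with that array included. Only 30.2% and 20.2% of all probe sets had means at or below theirs.

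Of the co-receptors, Eng (endoglin), which endothelial cells carry beside Acvrl1, had negative differences in both probe sets. The dimmer one, 1432176_a_at, was at 5.58, 5.88, 5.85 and 5.95 in Control and at 5.37, 5.59, 5.84 and 5.40 in Z/Edn2. Each Z/Edn2 array was below the Control array of the same number, by least in replicate 3, and the groups overlapped. The log2 fold change was −0.27 ± 0.126 (SE; 95% interval −0.55 to 0.02; limma adjusted p = 1.00). When single arrays were left out, it ran from −0.36 without Z/Edn2 3 (unadjusted p = 0.0108, adjusted p = 1.00 by limma) to −0.21 without Z/Edn2 1 (unadjusted p = 0.150, adjusted p = 0.779). Without Control 1, Z/Edn2 1 and Z/Edn2 3 it was −0.40 (limma adjusted p = 0.706). The brighter probe set, 1417271_a_at, was at 7.40, 7.56, 7.42 and 7.52 in Control and at 7.33, 7.33, 7.44 and 7.35 in Z/Edn2. Here 3 Z/Edn2 arrays were below every Control array, where 2 were in the dimmer probe set, and Z/Edn2 3 was within the Control range. This difference was −0.11 ± 0.0773 (SE; interval −0.29 to 0.06).

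Endothelial markers also had mostly negative differences. Of 15 marker genes of endothelium, 12 were below 0 and 3 above, the median log2 fold change was −0.22, and 1, the angiopoietin receptor Tek, passed (limma log2 fold change −1.54, adjusted p = 0.00537). With the replicate block 2 passed, Tek and the receptor phosphatase Ptprb (log2 fold change −0.78, limma adjusted p = 0.0560, and 0.0367 with the block). Over all 18193 genes, each by its brightest probe set, 8232 were below 0 and 0.132% passed, and with the block 54 genes passed. The log2 of their summed signal was 11.1 to 11.5 in Control and 10.8 to 11.2 in Z/Edn2. Kdr was the brightest of them, and Pecam1, a general endothelial adhesion protein, had a log2 fold change of 0.06. The part of endothelial content in the values of Eng, Acvrl1 and Tgfbr2 was not tested.

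Tgfbr3 (betaglycan), a co-receptor that presents Tgfb2 to Tgfbr2, had the smallest differences of the co-receptors. Its brighter probe set, 1433795_at, was at 5.91, 6.05, 6.33 and 5.99 in Control and at 5.96, 6.14, 6.26 and 6.07 in Z/Edn2. The Z/Edn2 values lay wholly inside the Control range, with a log2 fold change of 0.04 ± 0.111 (SE; interval −0.21 to 0.28). The dimmer probe set, 1425620_at, also had its Z/Edn2 values inside the Control range, with a log2 fold change of 0.06.

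**Figure D3:**
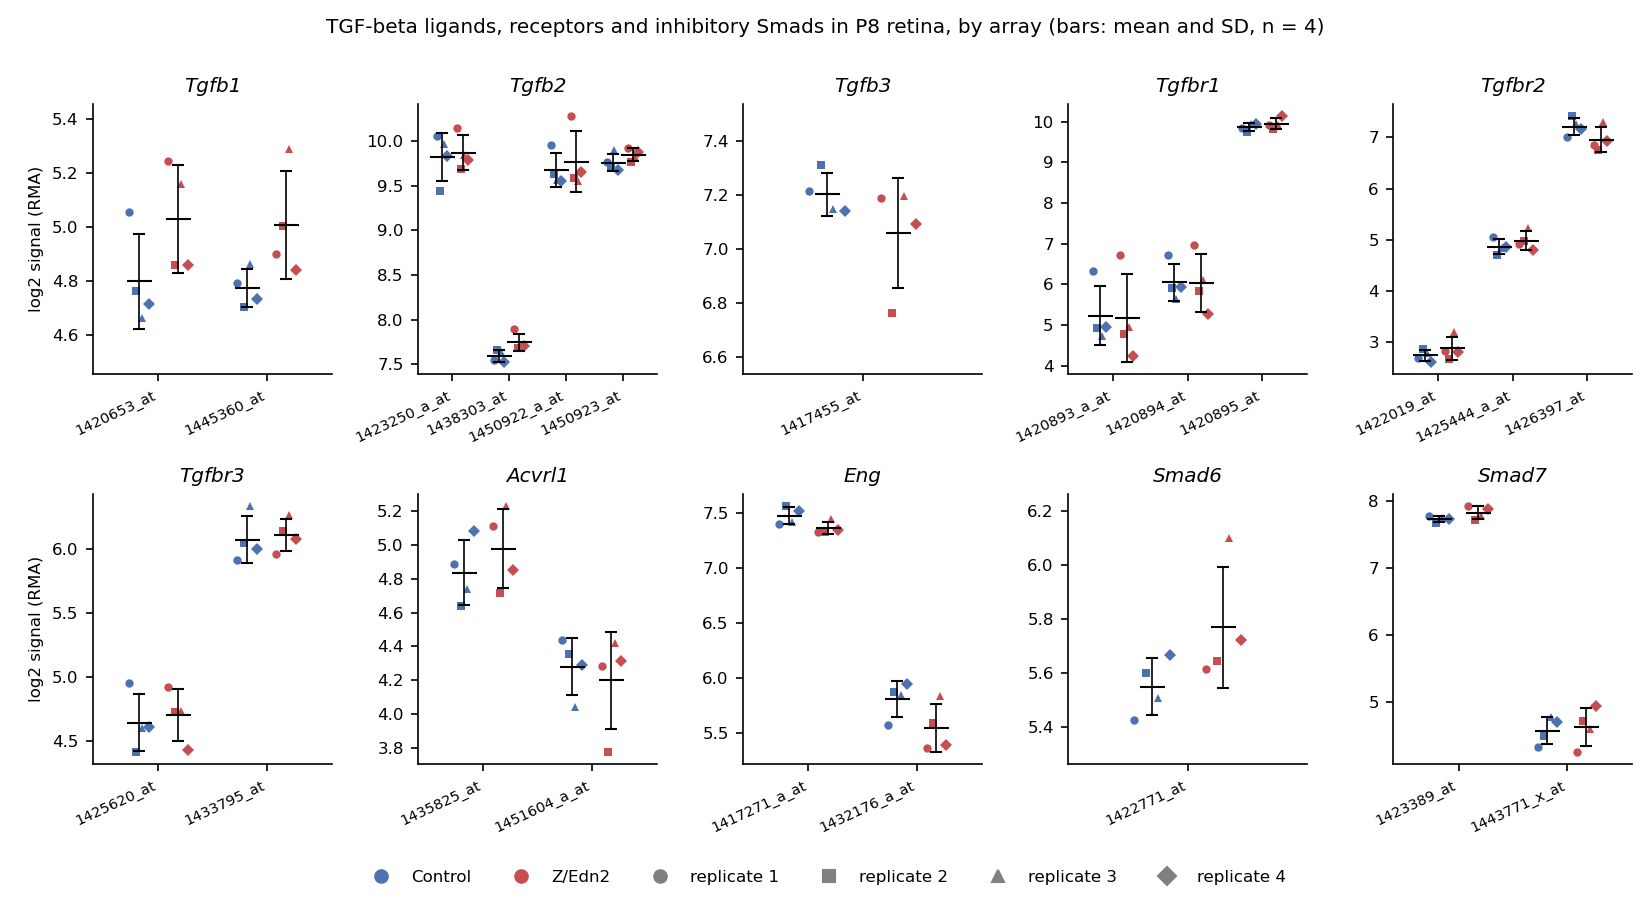
Log2 signal of every probe set of the 10 genes in each array (blue Control, red Z/Edn2; the marker shape gives the replicate number; bars are mean and SD, n = 4; each panel has its own axis, of at least 1 log2 unit). The groups overlap in 21 of the 22 probe sets, and the exception is Tgfb2 1438303_at.

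The inhibitory Smads, which TGF-beta and BMP signals induce, had positive differences in their 3 probe sets, none called. Smad6, which acts mainly on BMP signals, was at 5.43, 5.60, 5.51 and 5.67 in Control and at 5.62, 5.65, 6.10 and 5.72 in Z/Edn2. Each Z/Edn2 array was above the Control array of the same number, and Z/Edn2 3 stood highest. This gave a log2 fold change of 0.22 ± 0.119 (SE; 95% interval −0.05 to 0.49; limma adjusted p = 1.00), and 0.11 without Z/Edn2 3. Smad7, which acts on both branches, was at 7.78, 7.67, 7.75 and 7.74 in Control and at 7.92, 7.72, 7.78 and 7.88 in Z/Edn2 by its brighter probe set, 1423389_at. Here 3 Z/Edn2 arrays were above every Control array and Z/Edn2 2 was not. This difference was 0.09 ± 0.0788 (SE; interval −0.08 to 0.27), and that of the dimmer 1443771_x_at was 0.05 ± 0.154.

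Other genes of TGF-beta and BMP signalling were read from 7 lists, each gene by its brightest probe set. Of 75 genes, 72 were measured, and 0 passed in either direction, where 0.132% of all genes read in this way did. At an unadjusted p under 0.05 there were 4 higher and 2 lower, 6 in all, against 4.62% of all genes. The groups did not overlap in 4 (Smad9, Id3, Tagln and Hey1, the last of them named after its values were seen), against 3.68% of all genes. The median log2 fold change was 0.04, beside 0.01 over all genes.

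The Smads that carry the signal had small differences. Of 6, 5 had positive and 1 a negative log2 fold change, from −0.02 to 0.11. Smad9, of the BMP branch, was at 4.49 to 4.54 in Control and 4.61 to 4.67 in Z/Edn2, a difference of 0.11 ± 0.0690 (SE; limma adjusted p = 1.00). Smad2 and Smad3, the carriers of the TGF-beta branch, were at 0.02 and 0.04.

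Among the 10 other receptors, Bmpr1b, a type I BMP receptor, had the highest difference. It was at 5.78, 6.29, 6.19 and 5.68 in Control and at 6.19, 6.97, 7.07 and 6.82 in Z/Edn2. The 3 higher Z/Edn2 arrays were above every Control array, and Z/Edn2 1 lay within the Control range while it was above its own Control pair. Its log2 fold change was 0.78 ± 0.208 (SE; limma adjusted p = 0.755, and 0.0747 with the block), and with the gene's probe sets averaged it was 0.47. Bambi, a decoy receptor without a kinase domain, was at −0.19. Amhr2, the receptor of anti-Mullerian hormone, was at 0.24, and at 0.07 without Z/Edn2 3.

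Of the 12 BMP and activin ligands 10 had positive log2 fold changes, up to 0.21 for Bmp6, 0.16 for Inha, an inhibin subunit, and 0.15 for the growth factor Gdf11. Bmp6 was at 0.10 without Control 4. Of the 11 measured genes of latency and activation, the integrin subunits Itgav and Itgb8, which release active TGF-beta, were at 0.16 and −0.13, and Thbs1, a matrix activator of TGF-beta, at 0.23. When single arrays were left out, Itgav ran from 0.01 without Control 1 to 0.34 without Z/Edn2 1, and Thbs1 from 0.13 without Z/Edn2 3 to 0.36 without Z/Edn2 2. Itgb8 rested on Z/Edn2 3, at 7.91 against 8.64 to 9.31 in the other Z/Edn2 arrays, without which the difference was 0.15. Of the 8 extracellular antagonists measured, Bmper, a BMP-binding protein, was at 5.40, 5.29, 5.71 and 5.50 in Control and at 5.14, 5.02, 4.33 and 5.34 in Z/Edn2. Each Z/Edn2 array was below its Control pair, with a log2 fold change of −0.52 ± 0.201 (SE; limma adjusted p = 1.00), or −0.31 without Z/Edn2 3. The BMP antagonist Nog was at 0.22 (0.14 without Z/Edn2 1, 0.34 without Control 1) and Fstl3, an activin binder, at 0.14. The 12 regulators of receptors and Smads ranged from −0.06 for Ppm1a, a phosphatase, to 0.17 for Tgif2, a co-repressor, with its relative Tgif1 at 0.13, and without Control 2 these co-repressors were at 0.07 and 0.08.

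**Figure D4:**
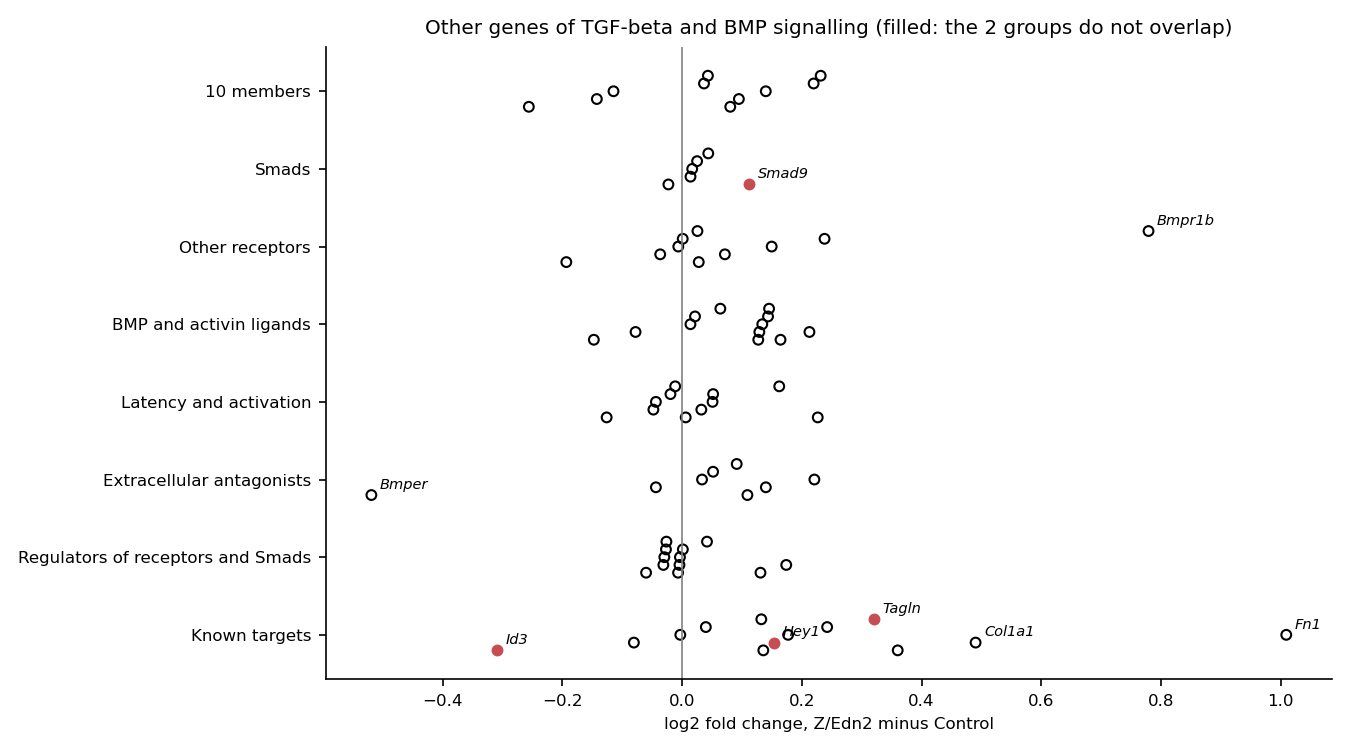
Log2 fold changes (Z/Edn2 minus Control) of the 10 genes and of 72 others of the pathway by list, each by its brightest probe set (1 point per gene). Filled points are the 4 genes whose groups do not overlap, and labels mark these and the genes with an unadjusted p under 0.05; 0 passed the adjusted test.

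The 13 measured target genes had the highest median of the lists, 0.15, with 10 positive and 3 negative log2 fold changes, and 0 called. Id3, an inhibitor of basic helix-loop-helix factors and a target of BMP signals, was at 8.66, 8.53, 8.57 and 8.65 in Control and at 8.32, 8.32, 8.36 and 8.17 in Z/Edn2. Every Z/Edn2 array was below every Control array, with a log2 fold change of −0.31 ± 0.0792 (SE; limma adjusted p = 0.678, and 0.256 with each gene's probe sets averaged). Its relatives Id1, Id2 and Id4, named after their values were seen, were at 0.18, −0.0031 and −0.08, with overlapping groups. Tagln, an actin-binding protein of smooth muscle and a target of TGF-beta, was at 5.95, 6.02, 5.99 and 5.99 in Control and at 6.23, 6.31, 6.34 and 6.35 in Z/Edn2. Every Z/Edn2 array was above every Control array, with a log2 fold change of 0.32 ± 0.0716 (SE; limma adjusted p = 0.427, and 0.128 with each gene's probe sets averaged). Fn1, the matrix protein fibronectin, was at 8.98, 9.12, 9.24 and 9.02 in Control and at 10.72, 9.19, 9.98 and 10.51 in Z/Edn2. Its Z/Edn2 arrays spread widely, with Z/Edn2 2 inside the Control range. The log2 fold change was 1.01 ± 0.282 (SE; limma adjusted p = 0.824, and 0.346 with the block). With the gene's probe sets averaged it was 0.81 (limma adjusted p = 0.0670).

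Cell types that make Tagln or Fn1, though not each of them both, include mural cells, fibroblasts and astrocytes. Of 8 mural markers 4 had positive and 4 negative log2 fold changes, and the log2 of their summed signal was 10.2 to 10.7 in Control and 10.3 to 10.8 in Z/Edn2. Rgs5, at −0.03, was the brightest of them. The smooth muscle genes Acta2 and Myh11 were at 0.46 and 0.16, and Abcc9, the lowest of the 8, at −0.48, all with overlapping groups. For 5 fibroblast markers the log2 of the summed signal was 7.65 to 8.08 in Control and 7.61 to 8.10 in Z/Edn2. For the 4 measured astrocyte markers it was 9.37 to 9.80 in Control and 9.99 to 10.1 in Z/Edn2, without overlap, and 0 of these passed. Pdgfra was the brightest of them. The mean of their log2 values, which weighs each marker alike, was 6.93 to 7.13 in Control and 7.41 to 7.46 in Z/Edn2. All 4 had positive log2 fold changes, and in Gfap, at 0.17, the groups overlapped. The part of these cell types in the values of Tagln and Fn1 was not tested.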

How the data were processed

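Values are log2 signals per probe set from 8 arrays; the authors deposited them after RMA, per the submitters' processing notes (version not given in the sources used here). The authors' deposited comparison, per the file headers, lists log2 fold changes, signed fold changes (a score, not used) and p-values of an unnamed test; the log2 fold changes equalled the group mean differences (Z/Edn2 minus Control) within 4.925e-08. Of 45101 probe sets, 64 array controls were left out; of the rest, 34945 had 1 gene symbol, 932 several and 9160 none. All 45037 were fitted with limma 3.58.1 (lmFit, eBayes, two-sided) in R 4.3.3, with group as the only term and no filter, checked on simulated data. The number of arrays limits the precision, and p-values measure the spread between these pools.

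Same-numbered arrays had residual correlations across probe sets of 0.784, 0.401, 0.166 and 0.307, each above 0.1, so the replicate number was also fitted as a block; the labels do not say what a number shares. The members, pathway lists and tests were chosen with earlier results of these data known. Of the pathway genes, any called and the 3 with the smallest p per list are named, besides Hey1, Id1, Id2 and Id4. The 3 list genes without a usable probe set were not analysed here.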

Additional observations from a re-analysis of the deposited data

Results flagged for a closer look

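In groups of 4 arrays, a sample was marked where its gap to the nearest of the others took up more of the group's range than Dixon's 95% critical value allows, which chance gives in about 1 of 20 groups; of 88 groups examined 6 were marked, 2 of them among 44 groups of the TGF-beta members. Tgfb2 1450922_a_at was at 10.3 in Z/Edn2 1, against 9.56 to 9.65 in the other Z/Edn2 arrays. Tgfbr1 1420893_a_at was at 6.32 in Control 1, against 4.74 to 4.95 in the other Control arrays. Smad3 was at 7.98 in Z/Edn2 1, against 8.29 to 8.34, and Itgav at 8.70 in Z/Edn2 1, against 9.38 to 9.42. Gdf11 was at 6.12 in Z/Edn2 4, against 6.35 to 6.38. Tgif2 was at 6.81 in Control 2, against 7.18 to 7.25.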

How the results depend on the processing

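Under each of the 22 alternatives run, 0 of the member probe sets fitted and 0 of the other pathway genes fitted passed. The filter on dim probe sets removed every probe set of Tgfb1, Tgfbr3, Acvrl1 and Smad6, so it is no test of these genes. The members' count at an unadjusted p under 0.05, 0 as reported, was 3 with the replicate block, 2 with array weights, 2 with array medians subtracted, 2 without Control 1, Z/Edn2 1 and Z/Edn2 3, 1 with a gene's probe sets averaged, 1 by the authors' p-values, and 0 to 3 when an array or a same-numbered pair was left out. The 34 probe sets called (27 higher, 7 lower) became 94 (78 and 16) with the replicate block and 67 (56 and 11) with array weights. With the authors' p-values adjusted they became 3 (3 and 0), and without dim probe sets 2 were lower. With an array or pair left out the count was 3 to 37 (3 to 32 higher, 0 to 6 lower): 19, 11, 14 and 11 without Control 1 to 4, 37, 19, 15 and 10 without Z/Edn2 1 to 4, and 35, 9, 9 and 3 without the pairs of replicate 1 to 4. Pathway genes at an unadjusted p under 0.05, 6 as reported, were 3 without dim probe sets and 4 to 9 with arrays left out. The 3 without dim probe sets were Bmpr1b, Id3 and Fn1. That filter removed Tagln and Bmper from the fit, so it is no test of Tagln and Bmper. Edn2 stayed between 0.11 and 0.24 where it was fitted; the filter on dim probe sets removed it. Signs of small differences turned. With Control 1, Z/Edn2 1 and Z/Edn2 3 left out, the log2 fold change was −0.0075 for Tgfb2 1423250_a_at, −0.016 for Tgfbr2 1422019_at, −0.017 for Tgfbr3 1433795_at, −0.035 for Acvrl1 1435825_at and 0.27 for Itgb8. It was 0.024 for Itgb8 with array weights, −0.0052 for Smad2 with array medians subtracted and 0.00083 for Tgfbr2 as a mean of probe sets. The causes were not tested. With arrays or pairs left out, ranges that crossed 0 were −0.085 to 0.12 for Tgfb2 1423250_a_at, −0.077 to 0.19 for Tgfb2 1450922_a_at, −0.58 to 0.30 for Tgfbr1 1420893_a_at, −0.32 to 0.25 for Tgfbr1 1420894_at, −0.024 to 0.16 for Tgfbr3 1425620_at, −0.016 to 0.12 for Tgfbr3 1433795_at, −0.24 to 0.084 for Acvrl1 1451604_a_at, −0.053 to 0.17 for Smad7 1443771_x_at, −0.036 to 0.083 for Smad2, −0.021 to 0.13 for Smad3 and −0.33 to 0.20 for Itgb8.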
